A study of Mus musculus with 12 samples.

Results

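Liver gene expression of PPARα-null mice fed bezafibrate was compared with that of untreated wild-type mice, that is, what still differed from an ordinary liver when the drug was given without PPARα. The comparison used 6 of the study's 12 arrays, 3 per group and each from a different mouse, chosen by their titles. The treated null mice came from the 129S4SvJae-PPARalphatm1Gonz/J line crossed with Jcl:ICR and ate, over 5 days, chow that held bezafibrate at 0.5% of its weight. The untreated wild-type mice were Jcl:ICR and ate the plain chow. All were males aged 6 to 12 weeks, kept under a light-dark cycle with 12 h of light, and their livers were taken 14 h after lights on (ZT14). Values of 3 wild-type Jcl:ICR males fed the same drug diet (treated wild type) are set beside them. The 3 Clk/Clk mutant arrays served only in the filter, the choice of probe sets and the estimate of the spread. The study had no untreated null group, so in every difference below the missing receptor, the 129S4SvJae-derived part of the genome and the drug cannot be told apart.

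PPARα is a nuclear receptor that fatty acids and fibrate drugs activate. Paired with a retinoid X receptor (RXR), it binds repeats of a short half-site in DNA and raises genes of fatty acid uptake and of peroxisomal, microsomal and mitochondrial fatty acid oxidation, most of all in hepatocytes. Bezafibrate is a lipid-lowering fibrate that also activates the related receptors PPARδ (gene Ppard) and PPARγ (gene Pparg).

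Expression was read as log2 values per probe set, where a difference of 1 is a doubling. The probe set with the highest mean stood for each gene, which gave 13598 genes with 1 symbol. Arrays of the same group correlated at 0.993 to 0.996 across probe sets and null with control arrays at 0.986 to 0.990. The level a probe set had to reach was 4.87 to 4.92, and folds that involve means under that level are not exact. Genes are described as higher or lower when the limma adjusted p (Benjamini-Hochberg) was under 0.05 and the difference was at least 1.5-fold. Ppara itself read 11.40, 11.85 and 11.43 in the untreated wild-type mice and 10.04, 9.88 and 9.73 in the treated null mice. Null mice were lower without overlap on all 3 Ppara probe sets, by 1.68 (SE 0.14), 1.05 and 0.98. Signal thus remained in null liver. The sources used here do not place the probes relative to the disrupted stretch of the gene, so the values do not check the genotype.

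Between treated null and untreated wild type 904 of 13598 genes differed, or 6.65% of those tested. Of these, 538 (3.96%) were higher in the treated null liver and 366 (2.69%) lower. The difference was at least 2-fold in 210 of the higher and 114 of the lower genes, and at least 4-fold in 36 and 17. The median over all genes was 0.02. The 3 null arrays lay entirely above or below the 3 control arrays in 894 of the 904 genes, and in 39.4% of all genes tested. By the same rule treated wild type differed from untreated wild type in 20.6% of genes (12.8% higher and 7.77% lower). Treated null differed from treated wild type in 13.4% (5.35% higher and 8.09% lower). These contrasts share arrays, so their values are given only side by side. Counts below for treated wild type against untreated are to be read beside 12.8% higher and 7.77% lower. Those for null against treated wild type are to be read beside 5.35% and 8.09%.

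**Figure D1:**
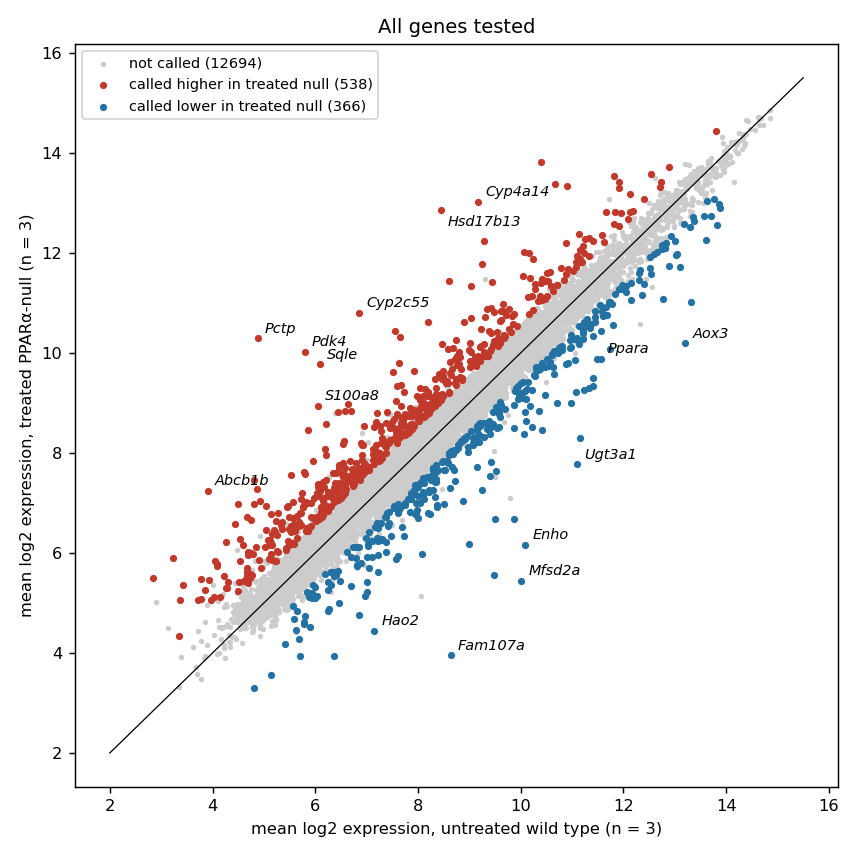
Mean log2 expression of each of the 13598 genes in untreated wild type (horizontal axis) and treated PPARα-null liver (vertical axis), n = 3 mice each, with the line of equality. The 538 higher genes (red) reach from Abcb1b near background to Cyp4a14 near the top of the scale, and the 366 lower genes (blue) include Ppara, Fam107a and Aox3.

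Many PPAR target genes were higher in treated null than in untreated wild-type liver, at levels under those of treated wild type. Among 31 tested genes of the PPAR target core list 14 were higher and 1 was lower. That is 45.2% higher against 3.96% of all genes, and the list's median difference was 0.62. In treated wild type 27 of the 31 were higher and none lower (median 2.15), and treated null was under treated wild type in 23 and above it in 1 (median -1.34). The 1 lower gene, Plin5 (-0.63), was named because it was the only one. Without null mouse 2 there were 2 lower genes, and without null mouse 3 there were none.

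Pdk4, the kinase that shuts off pyruvate dehydrogenase and so spares glucose, read 5.45, 5.48 and 6.46 in untreated wild type and 9.13, 10.08 and 10.85 in treated null. Its values in treated wild type were 13.26, 12.89 and 13.21. The 3 groups did not overlap, and null liver was above untreated liver by 4.22 (SE 0.37, 18.7-fold, adjusted p = 3.22e-05). Cyp4a14, a fatty acid omega-hydroxylase, read 8.48, 8.61 and 10.44 in untreated mice, 12.37, 13.19 and 13.50 in null mice and 14.22, 14.23 and 14.30 in treated wild type. Control mouse 3 was the high one of its group, as it was for Pdk4 and for Vnn1, and the difference of 3.85 (SE 0.43, adjusted p = 1.76e-04) stood clear of it. Treated wild-type Cyp4a14 lay near the top of the scale and may be saturated, and Cyp4a genes are similar enough for probes to share signal.

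Cd36, which carries fatty acids across the cell membrane, was among the most even of these genes. It read 7.79, 7.49 and 7.68 in untreated wild type, 10.27, 10.40 and 10.29 in treated null and 12.68, 12.40 and 12.72 in treated wild type. Null liver was 2.67 (SE 0.10, 6.35-fold) above untreated liver and at -2.28 from treated wild type, with no overlap on either side. Acot1, a cytosolic acyl-CoA thioesterase, read 8.98, 9.52 and 9.35 in untreated mice, 12.10, 12.36 and 12.28 in null mice and 13.53, 13.27 and 13.48 in treated wild type. Its mitochondrial relative Acot2 read 7.80, 8.08 and 8.71, then 10.18, 10.75 and 10.92, then 13.64, 13.38 and 13.55. The differences of null from untreated liver were 2.96 (SE 0.13) for Acot1 and 2.42 (SE 0.22) for Acot2, and those from treated wild type were -1.18 and -2.90. The Acot genes are close copies of each other, and their probes may share signal.

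Vnn1, a pantetheinase, was higher in null liver by 2.88 (SE 0.42, adjusted p = 8.85e-04). Its null values of 9.36, 10.80 and 11.12 lay between the untreated values of 6.91, 7.36 and 8.38 and the treated wild-type values of 13.55, 13.20 and 13.29. Ehhadh, the peroxisomal bifunctional enzyme, rose less, from 11.45, 11.94 and 12.04 to 13.42, 13.52 and 13.65, a difference of 1.72 (SE 0.13). The lipid droplet coat gene Plin2 differed by 0.98 (SE 0.09), with 12.66, 12.82 and 12.98 in null mice against 11.75, 11.84 and 11.93. In both genes treated wild type was higher still, at 14.40 or more for Ehhadh and 14.10 or more for Plin2.

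Other genes of the list did not pass, and some were far from their level in treated wild type. The hormone gene Fgf21 read 5.71, 5.71 and 5.79 in untreated mice, 5.06, 5.16 and 4.99 in null mice and 8.29, 8.72 and 9.83 in treated wild type. Null mice were thus below the untreated ones in this gene (-0.67, adjusted p = 0.165), without overlap. Angptl4, which inhibits lipoprotein lipase, differed by 0.43 (SE 0.10, adjusted p = 0.00939), under the fold required. Fabp1, the liver fatty acid binding protein gene, differed by 0.09 and Pex11a, a peroxisome division gene, by 0.21. Values for these 2 genes were picked after they were seen.

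Promoter letters are shown for the 4 largest rises of the PPAR target core list among the genes held in the RefSeq promoter table (GRCm38.p6). Each sequence is the 250 bases before the start listed in that table, 5′ to 3′ on the gene's strand. For Cd36 the listed start lies inside the gene's full span (chr5:17781690-17888959), so its window is not upstream of the whole gene. Capitals mark the half-site AGGNCA or its reverse complement TGNCCT. The full motif, 2 copies of the half-site in the same direction with 1 base of any kind between them, searched on both strands, was in none of the 12 higher list genes that the table holds and in 0.338% of all 32851 promoters. The single half-site, on either strand, was in 8 of the 12 and in 51.3% of all promoters. That second search was added after the data were seen, and the half-site is part of the longer motif.
Pdk4, chr6:5496279-5496528, minus strand: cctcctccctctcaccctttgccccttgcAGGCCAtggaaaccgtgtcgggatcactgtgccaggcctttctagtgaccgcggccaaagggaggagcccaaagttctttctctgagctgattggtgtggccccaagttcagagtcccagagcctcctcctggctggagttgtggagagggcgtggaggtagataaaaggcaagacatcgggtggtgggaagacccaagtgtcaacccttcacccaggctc
Acot1, chr12:84009252-84009501, plus strand: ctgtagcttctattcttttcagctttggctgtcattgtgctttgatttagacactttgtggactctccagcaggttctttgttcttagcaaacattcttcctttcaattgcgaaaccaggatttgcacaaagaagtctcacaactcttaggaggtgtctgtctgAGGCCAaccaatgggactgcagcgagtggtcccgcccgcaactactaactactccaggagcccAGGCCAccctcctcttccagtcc
Cd36, chr5:17835897-17836146, minus strand: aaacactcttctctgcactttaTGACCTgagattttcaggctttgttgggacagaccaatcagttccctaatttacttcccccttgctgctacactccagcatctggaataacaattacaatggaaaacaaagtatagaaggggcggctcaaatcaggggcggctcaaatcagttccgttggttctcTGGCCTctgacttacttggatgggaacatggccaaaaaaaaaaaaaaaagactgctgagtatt
Acot2, chr12:83987611-83987860, plus strand: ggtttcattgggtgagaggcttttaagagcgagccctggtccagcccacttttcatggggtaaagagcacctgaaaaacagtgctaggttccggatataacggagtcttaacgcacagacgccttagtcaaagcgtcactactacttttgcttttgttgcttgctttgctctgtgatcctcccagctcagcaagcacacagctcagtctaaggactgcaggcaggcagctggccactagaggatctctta
Pdk4 holds 1 half-site in this window, Acot1 and Cd36 hold 2 each, and the letters are not in the window of Acot2. A match describes the letters only.

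**Figure D2:**
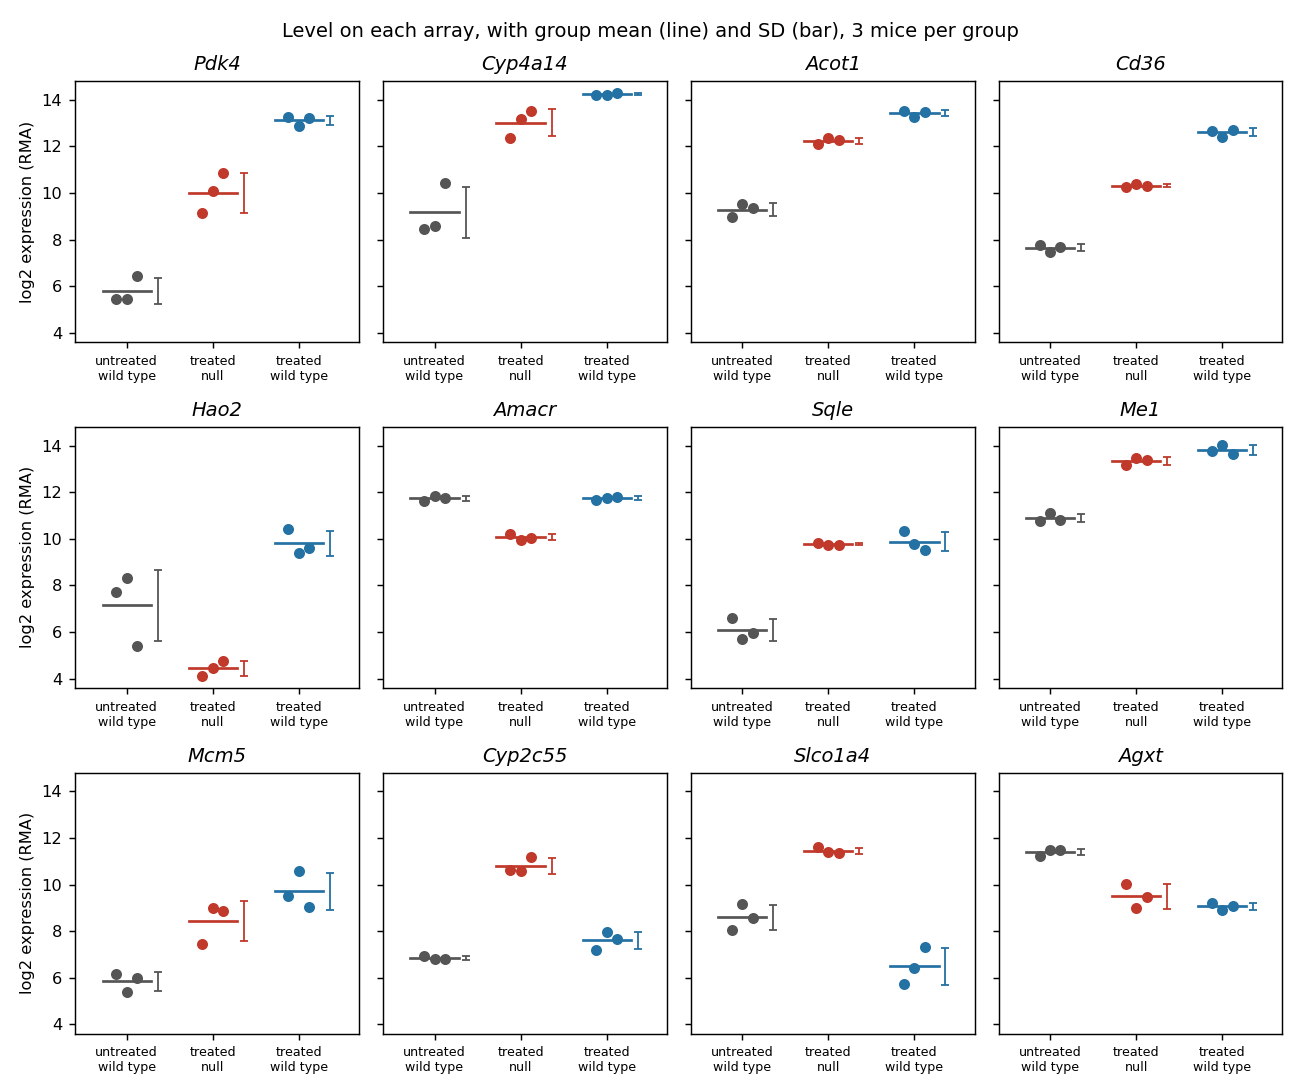
Log2 expression on each array of 12 genes in untreated wild type, treated PPARα-null and treated wild type (points, 3 mice each), with the group mean (line) and SD (bar). Null mice lie between the other groups for Pdk4, Cyp4a14, Acot1 and Cd36, and apart from both for Hao2, Amacr, Cyp2c55 and Slco1a4. They lie near treated wild type for Sqle, Agxt and, on the brightest probe set shown, Me1.

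The PPAR genes differed among themselves. Pparg, best known from fat cells, read 5.79, 5.83 and 5.62 in untreated mice and 6.70, 7.53 and 7.37 in null mice, a difference of 1.46 (SE 0.24, adjusted p = 0.00171). It rests on 1 probe set that may match more than 1 transcript, and treated wild type was above untreated by 0.99. Ppard differed by 0.05 (adjusted p = 0.76). In the list of 23 PPARs, RXRs and coactivators Pparg was the 1 higher and Ppara the 1 lower gene (4.35% each, against 3.96% and 2.69% of all genes). Without control mouse 3 there were 2 higher genes.

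Mitochondrial fatty acid oxidation was higher in part. Of 27 genes in the list of mitochondrial oxidation and ketogenesis 7 were higher and none lower (25.9% higher, median 0.20), while 16 were higher in treated wild type (median 0.93). At an unadjusted p under 0.05 in limma 3 of the 27 were lower in null liver, and without null mouse 2 there was 1 lower call. Eci1, an isomerase for unsaturated fatty acids, was the steadiest, from 10.86, 10.81 and 10.96 to 12.15, 12.26 and 12.20, a difference of 1.33 (SE 0.07, adjusted p = 4.45e-07). The thioesterase gene Acot9 was higher by 1.14 (SE 0.11). Cpt1a, which controls fatty acid entry into mitochondria, differed by 0.25 (adjusted p = 0.163) with overlapping arrays, and by 0.17 between treated and untreated wild type.

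Peroxisomal genes went both ways. Of 39 tested, 6 were higher and 5 lower (15.4% and 12.8%), with a median of -0.06, whereas treated wild type had 20 higher and 4 lower (median 0.60). The higher genes included Ehhadh, Acot3 (1.54), Acot4 (0.86) and the carnitine acetyltransferase gene Crat (0.71, SE 0.09). Without any 1 of the control mice another Crat probe set was the brightest, and the difference was 1.72 to 1.88. The lower genes were Amacr, Hao2, Abcd2, Hao1 (-0.68) and Decr2 (-1.96). Amacr, the racemase for branched fatty acids and bile acid intermediates, read 11.61, 11.86 and 11.74 in untreated mice, 10.21, 9.97 and 10.03 in null mice and 11.66, 11.77 and 11.81 in treated wild type. Null liver alone stood apart, by -1.67 (SE 0.09, adjusted p = 5.8e-07) from untreated and by -1.68 from treated wild type, while the 2 wild-type groups differed by 0.01.

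Hao2, a peroxisomal hydroxy acid oxidase, was spread widely in untreated mice at 7.72, 8.30 and 5.41, with control mouse 3 low. Null mice read 4.11, 4.48 and 4.75, under the filter level, and treated wild type 10.42, 9.38 and 9.62. The difference was -2.70 (SE 0.57, adjusted p = 0.00703). Abcd2, a peroxisomal importer of very long-chain fatty acids, read 5.14, 5.22 and 4.04 in untreated mice, 3.43, 3.20 and 3.29 in null mice and 8.27, 8.0 and 8.49 in treated wild type. The untreated and null means of Abcd2, 4.80 and 3.31, were both under the filter level, so its difference of -1.49 is not exact. Its other probe sets gave -0.43, -0.13 and -0.18, and none passed when each was tested. As the mean of its probe sets the Abcd2 difference from untreated mice was -0.56 and did not pass. On the probe sets used, the null mean was under the untreated mean in both genes and the treated wild-type mean above it.

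Genes of fatty acid uptake and lipid droplets were higher more often than lower, with 9 and 3 of 32 (28.1% and 9.38%, median 0.27). In treated wild type 25 were higher and 1 lower (median 1.5). Beside Cd36 and Plin2 the higher genes included the droplet coat gene Plin3 (0.95, SE 0.11) and Abhd5 (1.14, SE 0.10), which activates the triglyceride lipase ATGL. Abhd5 read 8.39, 8.23 and 8.39 in untreated mice and 9.36, 9.53 and 9.53 in null mice, and treated wild type, at 9.71, 9.64 and 9.38, overlapped the null mice. Pnpla3, a droplet lipase family member, was higher by 2.38 (SE 0.42), with 8.05, 8.63 and 9.79 against 6.75, 6.55 and 6.03. Fabp4, a fatty acid binding protein of fat cells, was higher by 1.71 (SE 0.24) on its brightest probe set, but by 0.15 (adjusted p = 0.47) when probe sets that can match several transcripts were left out. The lower genes were Plin5, Fabp2 (-0.66) and Fitm1 (-0.66).

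The lists of fat and sterol synthesis had the largest shares of higher genes besides the cell cycle. In lipogenesis 14 of 28 genes were higher and none lower (median 0.64), and in limma 1 was lower at an unadjusted p under 0.05. The 14 became 11 to 13 when 1 array was left out. Me1, which supplies NADPH for fatty acid synthesis, read 10.78, 11.11 and 10.81 in untreated mice, 13.17, 13.46 and 13.40 in null mice and 13.78, 14.04 and 13.63 in treated wild type. The difference was 2.45 (SE 0.14, 5.45-fold, adjusted p = 1.47e-06). Acacb and Acaca, the 2 acetyl-CoA carboxylases, were higher by 2.10 (SE 0.14) and 1.17 (SE 0.11), and the elongase Elovl1 by 0.82. A second Acacb probe set differed by 0.06 and a second Acaca probe set by 0.56, and neither passed. On the brightest probe sets these 4 genes did not differ beyond the threshold between null and treated wild-type liver (-0.47, -0.21, -0.31 and -0.07). A second Me1 probe set read 12.46, 12.45 and 12.89 in null mice and 13.72, 13.87 and 13.50 in treated wild type. These values did not overlap, and null mice were 2.58 (SE 0.14) above untreated mice on it. Over the list, treated wild type had 17 higher and 2 lower genes against untreated, and null liver was under treated wild type in 5 genes and above it in 3.

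In cholesterol synthesis and uptake 14 of 20 genes were higher and none lower (70.0%, median 0.99), and none was lower at an unadjusted p under 0.05 in limma. The 14 became 10 to 12 when 1 array was left out. Sqle, squalene epoxidase, read 6.61, 5.71 and 5.95 in untreated mice, 9.82, 9.74 and 9.75 in null mice and 10.32, 9.78 and 9.51 in treated wild type. Null and treated wild-type mice overlapped, and both stood above untreated mice, by 3.68 (SE 0.49, 12.8-fold) and 3.78. Fdps, farnesyl diphosphate synthase, was higher by 2.52 (SE 0.27) and Nsdhl, a sterol dehydrogenase, by 1.5 (SE 0.20). Hmgcs1, the cytosolic HMG-CoA synthase, read 11.16, 11.86 and 11.78 in null mice against 10.51, 10.57 and 10.42, and was 1.10 (SE 0.16) higher, yet below treated wild type (-1.34). Over the list treated wild type was above untreated in 15 genes, and null liver was under treated wild type in 6.

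**Figure D3:**
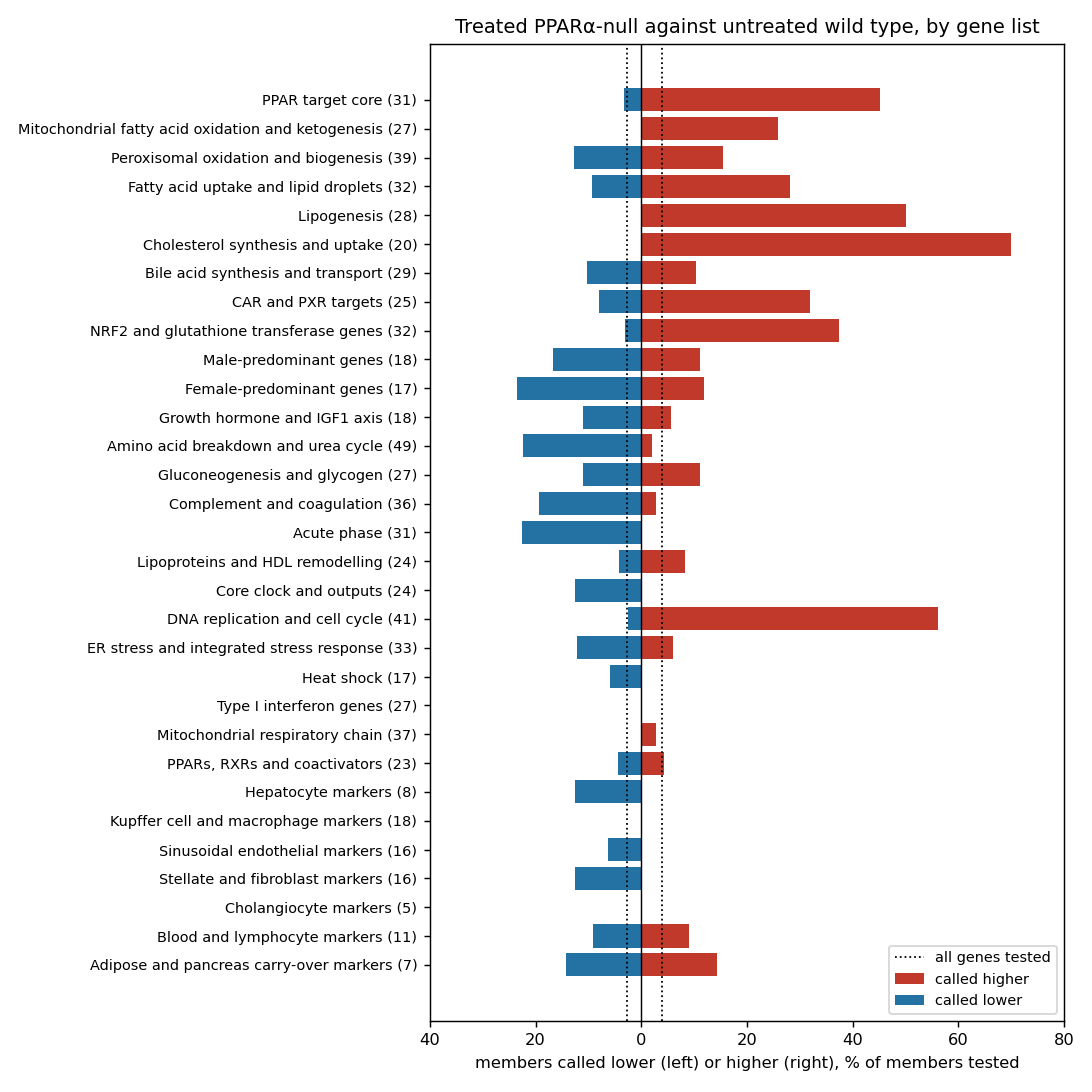
Share of the tested members of each gene list (number in brackets) that were higher (right, red) or lower (left, blue) in treated PPARα-null than in untreated wild-type liver, with dotted lines at the shares over all genes, 3.96% and 2.69%. Cholesterol synthesis (70.0%), DNA replication and cell cycle (56.1%) and lipogenesis (14 of 28 genes) reach farthest to the right.

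Genes that respond to the xenobiotic receptors CAR and PXR gave 8 higher and 2 lower of 25 (32.0% and 8.0%, median 0.18), against 7 and 8 in treated wild type. Cyp2c55, a cytochrome P450, read 6.95, 6.79 and 6.83 in untreated mice, 10.63, 10.57 and 11.21 in null mice and 7.21, 7.95 and 7.68 in treated wild type. Null mice stood above both wild-type groups, by 3.95 (SE 0.20, 15.4-fold, adjusted p = 5.23e-07) and 3.19. Slco1a4, an uptake transporter of bile acids and drugs, read 8.06, 9.16 and 8.57 in untreated mice, 11.60, 11.39 and 11.34 in null mice and 5.74, 6.42 and 7.32 in treated wild type. Here the 2 treated groups lay on opposite sides of the untreated one, at 2.85 (SE 0.35) and -2.10. The lower genes were the cytochromes Cyp2b9 (-1.27) and Cyp2c37 (-1.39). The classical CAR target Cyp2b10 differed by -0.21 (adjusted p = 0.765), with overlapping arrays, and was -2.40 in treated wild type.

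Abcb1b, an efflux pump of the P-glycoprotein family, read 3.91, 3.56 and 4.25 in untreated mice, under the filter level, and 6.74, 7.03 and 7.95 in null mice. Treated wild type read 4.20, 3.92 and 5.04, so that null mice were again above both groups (3.33, SE 0.39, and 2.85). Ces2a, a carboxylesterase, was 2.71 higher (SE 0.86, adjusted p = 0.0438), with control mouse 1 low at 8.75 beside 12.04 and 11.22. Its difference was 1.75 and did not pass without control mouse 1, nor did it pass without control mouse 3 or any 1 of the null mice. Aldh1a7, an aldehyde dehydrogenase, was higher by 1.39 (SE 0.18), and the efflux pumps Abcc3 and Abcc4 by 1.04 (SE 0.14) and 1.82 (SE 0.29).

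Among NRF2 and glutathione transferase genes 12 of 32 were higher and 1 was lower (37.5% and 3.12%, median 0.33). Without control mouse 1 there were 2 lower genes, and leaving out 1 array at a time gave 8 to 12 higher ones. Gstm3, a glutathione transferase, read 10.27, 10.63 and 10.27 in untreated mice and 13.73, 13.96 and 13.76 in null mice, 3.43 (SE 0.56, adjusted p = 0.0018) higher. Treated wild type read 12.26, 13.75 and 13.71 and overlapped the null mice, and the Gstm genes are near copies whose probes may share signal. Tkt and Pgd, both of the pentose phosphate pathway, were higher by 1.15 (SE 0.08) and 1.26 (SE 0.10), and Ephx1, an epoxide hydrolase, by 1.05 (SE 0.11). The lower gene was Gsta4 (-1.09), another glutathione transferase.

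Bile acid genes divided evenly, with 3 higher and 3 lower of 29 (10.3% each, median -0.24). Without control mouse 2, null mouse 1 or null mouse 3 there was 1 lower gene. Treated wild type had 3 higher and 15 lower, beside 12.8% and 7.77% of all genes in that contrast. Cyp7a1, the rate-limiting enzyme of bile acid synthesis, read 11.66, 10.84 and 10.68 in untreated mice, 9.70, 10.69 and 9.59 in null mice and 5.50, 7.56 and 6.35 in treated wild type. The null difference of -1.07 (SE 0.65, adjusted p = 0.276) did not pass, and its arrays overlapped, while treated wild type was -4.59 from untreated. The dimmer Cyp7a1 probe set read 9.98, 9.19 and 8.90 in untreated and 7.38, 8.50 and 7.33 in null mice, without overlap, and passed when each probe set was tested (-1.62, SE 0.48, limma adjusted p = 0.0353). The higher genes of the list were Abcc3, Abcc4 and Slco1a4, and the lower ones Amacr, Cyp7b1 (-0.64), an oxysterol hydroxylase, and Nr0b2 (-0.94), a nuclear receptor that represses bile acid synthesis.

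Among 18 genes that are higher in male liver, 2 were higher and 3 lower in null mice (11.1% and 16.7%, median -0.20). The counts in treated wild type were 1 and 14 (median -1.79), and null liver was above treated wild type in 13 and below it in none. The 2 higher became 1 without control mouse 1, 2 or 3 or null mouse 2, and none without null mouse 3. Hsd3b5, a male-specific steroid dehydrogenase, read 12.05, 12.75 and 12.50 in untreated mice, 11.47 ± 0.42 (mean ± SD, n = 3) in null mice, the highest at 11.81, and 4.66, 4.59 and 5.87 in treated wild type. Null mice were lower without overlap but the difference of -0.96 did not pass (adjusted p = 0.125). Its relative Hsd3b2 was lower, at -1.86 (SE 0.16), and the Hsd3b genes are similar in sequence. The higher genes were Elovl3 (1.05) and Nat8 (0.67), and the other lower ones Cyp7b1 (-0.64) and C8a (-0.82). Female-predominant genes had 2 higher and 4 lower of 17 (11.8% and 23.5%). These were Acot3 and Acot4, and Hao2, Abcd2, the cytochrome Cyp2b9 (-1.27) and the monooxygenase Fmo2 (-0.84). With the mean of each gene's probe sets the lower genes were 2, and without probe sets that can match several transcripts the higher gene was 1.

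In the growth hormone list 1 gene was higher and 2 were lower of 18 (5.56% and 11.1%, against 3.96% and 2.69% of all genes). Igfbp1, which binds insulin-like growth factors and is held down by insulin, was the higher gene, at 8.57, 9.40 and 8.97 against 6.76, 6.92 and 6.21 (2.34, SE 0.50). Socs3, an inhibitor of cytokine signalling, was lower (-1.99, SE 0.33), as was its relative Socs2 (-1.71), and Igf1 differed by -0.52 on its brightest probe set, under the fold required. Of its other 3 probe sets, 2 passed when each was tested (-1.10 and -0.63) and 1 did not (-0.55). Without control mouse 2 there were 2 higher genes, and without null mouse 1 or null mouse 3 there was 1 lower gene.

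Part of the enzymes and secreted proteins that hepatocytes make in bulk were lower. Of 49 genes of amino acid breakdown and the urea cycle 11 were lower and 1 higher (22.4% and 2.04%, median -0.25), and 34 were lower in treated wild type (median -0.86). Without null mouse 3 the 11 became 7. Agxt, which detoxifies glyoxylate, read 11.24, 11.48 and 11.48 in untreated mice, 10.04, 8.99 and 9.47 in null mice and 9.21, 8.91 and 9.08 in treated wild type. Both treated groups were low, by -1.90 (SE 0.20) and -2.33. Ivd and Dbt, enzymes of branched-chain amino acid breakdown, were each at -0.74 (SE 0.07 and 0.09). The 1 higher gene was Oat (0.94), ornithine aminotransferase. Cps1, the first urea cycle enzyme, differed by -0.26, under the fold required, and was -1.24 in treated wild type.

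In complement and coagulation 7 of 36 genes were lower and 1 was higher (19.4% and 2.78%, median -0.28), against 27 lower in treated wild type (median -0.93). Mbl1, a mannose-binding lectin, read 12.13, 11.89 and 12.15 in untreated mice and 11.03, 11.23 and 11.37 in null mice (-0.84, SE 0.10), and treated wild type was at the same level (-0.87 from untreated). The 1 higher gene was C2 (0.70), a complement protease. Of the acute phase genes 7 of 31 were lower and none higher (22.6% lower, median -0.41), and none was higher at an unadjusted p under 0.05 in limma. Itih3, an inter-alpha-trypsin inhibitor chain, was lower (-1.05, SE 0.10), as was the serpin Serpina3n (-0.87, SE 0.12). Mt2, a metallothionein, read 13.72, 13.23 and 12.98 in untreated mice and 12.41, 11.79 and 8.88 in null mice, with null mouse 3 far below the rest. Its difference of -2.29 (SE 0.66, adjusted p = 0.0304) did not pass without control mouse 1 (-2.08), 2 (-2.32) or 3 (-2.45). Without null mouse 3 it was -1.21 and passed.

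Sugar genes gave 3 higher and 3 lower of 27 (11.1% each). Ppp1r3c, which targets a phosphatase to glycogen, read 11.81, 10.58 and 10.52 in untreated mice and 8.95, 9.01 and 9.01 in null mice, -1.98 (SE 0.28). Pfkfb3, which drives glycolysis, was lower on 1 probe set (-1.46, SE 0.19) and at -0.10 on the other, and Gyg, glycogenin, higher by 0.92 (SE 0.14). The others were Pdk4, its relative Pdk1 (1.04), and Pck1 (-1.38), a key enzyme of gluconeogenesis. The lipoprotein list had 2 higher and 1 lower gene of 24 (8.33% and 4.17%, against 3.96% and 2.69% of all genes). They were Mttp (0.59), Pltp (1.10) and Apof (-0.59), Pltp being named because it completes the count. Mttp did not pass without control mouse 1 (0.58) or null mouse 3 (0.51), and Apof did not without control mouse 1 (-0.57) or null mouse 2 (-0.55), so that there was 1 higher gene without control mouse 1 or null mouse 3. Without control mouse 1 none was lower.

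Many DNA replication and cell cycle genes were higher in null liver. Of 41 tested, 23 were higher and 1 was lower (56.1% and 2.44%, median 0.98), and treated wild type had 28 higher and 2 lower (median 1.65). Mcm5, a subunit of the replicative helicase, read 6.17, 5.38 and 6.01 in untreated mice, 7.45, 9.0 and 8.89 in null mice and 9.53, 10.60 and 9.03 in treated wild type. Null mouse 1 was the low one of its group, but no null value overlapped the untreated ones (2.60, SE 0.45, 6.05-fold, adjusted p = 0.00235). Mcm6 (2.15, SE 0.40), the mitotic survivin gene Birc5 (2.15, SE 0.39) and cyclin A2, Ccna2 (1.17, SE 0.18), had the same null mouse lowest. The 1 lower gene was Mcm10 (-1.06), a replication initiation factor.

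The mean of the 41 cell cycle genes, set to the untreated mean, was 0.54 in null mouse 1 and 1.14 and 1.21 in the others, while the untreated mice lay between -0.05 and 0.04. The count of 23 fell to 14 without control mouse 3, 15 without null mouse 2 and 13 without null mouse 3. Ccnd1, cyclin D1, was 0.95 higher (SE 0.24, adjusted p = 0.0158). It did not pass without control mouse 1 (0.74) or 3 (0.88) or null mouse 3 (0.79), and in treated wild type it was 3.16 higher.

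**Figure D4:**
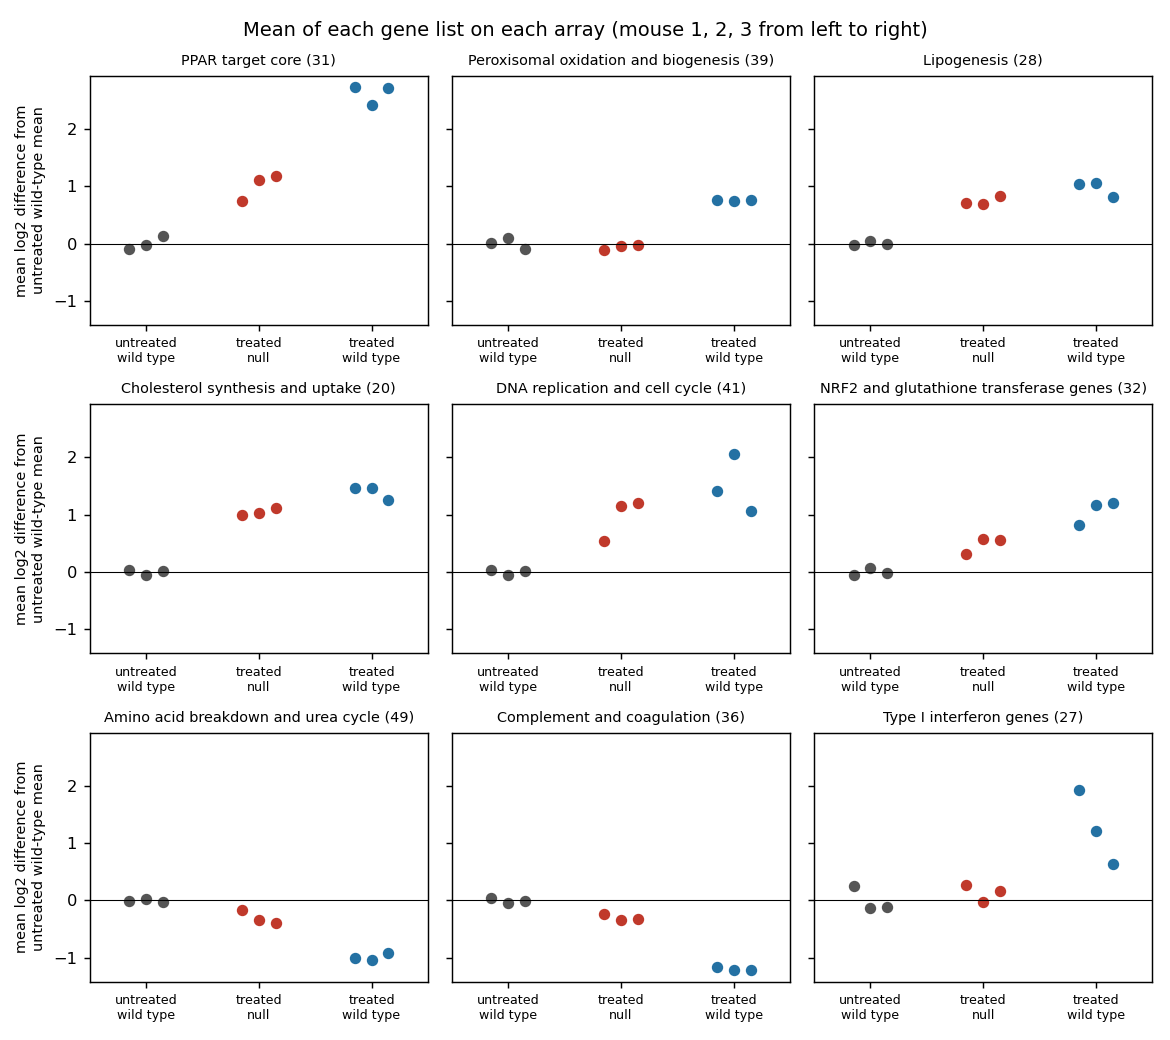
Mean log2 difference from the untreated wild-type mean over the genes of 9 lists (number in brackets) on each array, 3 mice per group. Null mice lie between the other groups for PPAR targets (0.74 to 1.18), nearer to treated wild type for lipogenesis and cholesterol synthesis, and near the untreated level for peroxisomal genes and type I interferon genes.

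No type I interferon gene of 27 was called in limma (2 were higher and 1 lower at an unadjusted p under 0.05), and without control mouse 1 there was 1 higher gene. Treated wild type had 20 higher, and null liver was under treated wild type in 18. The list's mean was 0.26, -0.02 and 0.17 in null mice and 1.93, 1.22 and 0.64 in treated wild type. In ER stress and the integrated stress response 2 of 33 genes were higher and 4 lower (6.06% and 12.1%, against 3.96% and 2.69% of all genes). The 4 became none without control mouse 1, 7 without control mouse 2 and 2 without control mouse 3 or null mouse 3, and the 2 became 1 without any 1 of the control mice or without null mouse 2 or 3. Asns, asparagine synthetase, was higher by 2.03 (SE 0.38), at 8.25, 6.87 and 7.54 against 5.37, 5.70 and 5.50. The other higher gene was Psat1 (1.32), of serine synthesis, and the lower ones were Pdia6 (-0.62), Herpud1 (-0.71), Ddit3 (-0.90) and Sdf2l1 (-1.21).

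Of 17 heat shock genes 1 was lower (5.88%, against 2.69% of all genes), namely Hspb8 (-0.79), a small heat shock protein, and 2 without control mouse 2. Hspb1, of the same family, differed by -0.53 with overlapping arrays and was 2.60 in treated wild type. The respiratory chain list had 1 higher gene of 37 (2.7%, against 3.96% of all genes) and a median of 0.10. That gene, Cs (1.10, SE 0.11), encodes citrate synthase of the citric acid cycle, not a subunit of the chain. The subunits Cox4i1 (0.28), Atp5o (0.27) and Cox8a (0.28) were above the untreated arrays without overlap but under the fold required.

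Of 24 clock genes none was higher (1 at an unadjusted p under 0.05 in limma) and 3 were lower (12.5%, against 2.69% of all genes). Noct, a clock-controlled phosphatase of dinucleotides, read 10.75, 10.38 and 10.29 in untreated mice and 9.59, 9.19 and 8.70 in null mice, -1.31 (SE 0.27). Cry1 and Per1, repressors of the clock, were at -0.69 (SE 0.16) and -0.88 (SE 0.21), and Per1 did not pass without control mouse 1 (-0.74, adjusted p = 0.0527) or null mouse 3 (-0.74, adjusted p = 0.0608). Clock (0.01), Arntl (-0.01) and Per2 (0.02) had overlapping arrays, and Dbp differed by -0.84 (adjusted p = 0.261). Livers were taken at a single time of day, so a change of level and a shift of phase cannot be told apart.

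Marker lists of liver cell types are short, so 1 call is a large share beside the 3.96% higher and 2.69% lower of all genes. In whole tissue, fewer cells of a type and less RNA per cell cannot be told apart. The summed linear signal of 8 hepatocyte markers was 120096 to 124113 in untreated mice and 108774 to 114961 in null mice. Of these markers 1 was lower (12.5%), Tat (-0.80), and none without control mouse 1, null mouse 2 or null mouse 3. The 16 stellate and fibroblast markers summed to 11875 to 12752 in untreated and 8613 to 10268 in null mice. Lum (-0.91, SE 0.11) and Rgs5 (-0.62, SE 0.08) were lower (12.5%), the latter not without null mouse 2 (-0.58). Without control mouse 2 or null mouse 2 there was 1 higher marker. The 16 sinusoidal endothelial markers summed to 7763 to 8347 and 6498 to 6948, with Fcgr2b (-0.76) the 1 lower gene (6.25%). Yet 7 of the 16 had a positive difference and the median was -0.02, and a linear sum gives bright markers the most weight. Fcgr2b was -0.42 as the mean of its probe sets, and 2 markers were lower without null mouse 1.

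For these 3 cell types the sums of null and untreated mice did not overlap, as was also so for the values of 39.4% of all genes tested. The part of these cell types in the differences above was not tested. Of 18 Kupffer cell and macrophage markers none was called in limma (1 higher and 5 lower at an unadjusted p under 0.05), and 1 was lower without control mouse 1 or 2. Their sums overlapped, at 8045 to 9233 in untreated and 8545 to 9341 in null mice. None of 5 cholangiocyte markers was called (1 at an unadjusted p under 0.05 in limma). Among 11 blood markers S100a8, a neutrophil protein gene, was higher, at 7.93, 9.59 and 9.30 against 6.33, 5.46 and 6.36 (2.89, SE 0.47). Alas2, of red blood cells, was lower (-0.92), but not without control mouse 2 or 3 or any 1 of the null mice. The blood marker sums overlapped (1064 to 1311 and 1114 to 1655). Of 7 fat and pancreas markers Fabp4 was higher and the elastase gene Cela1 lower (-1.70, SE 0.12), and Cela1 was as low in treated wild type (-1.73).

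Several of the largest differences lay outside these lists. Pctp, a carrier of phosphatidylcholine, had the largest rise, from 4.59, 4.77 and 5.28, around the filter level, to 9.80, 10.47 and 10.60. It was 5.41 higher (SE 0.20, adjusted p = 3.16e-08), and treated wild type was higher still at 11.68, 11.65 and 11.65. A second Pctp probe set read 6.80, 7.17 and 6.13 in untreated and 7.64, 7.74 and 8.07 in null mice, 1.12 higher (SE 0.22). The size of the rise thus depended on the probe set. Pik3c2g, a lipid kinase, was higher by 2.66 (SE 0.44), and did not differ from treated wild type beyond the threshold (0.48). Hsd17b13, a lipid droplet enzyme, gave opposite answers on its 2 probe sets. The brighter read 8.29, 8.44 and 8.58 in untreated and 12.96, 12.75 and 12.88 in null mice, 4.42 (SE 0.10) higher, with treated wild type at 12.59, 12.70 and 12.91. The other read 10.24, 10.11 and 10.11 in untreated and 5.48, 5.72 and 5.24 in null mice, a difference of -4.67, with treated wild type between them at 8.51, 8.75 and 8.55. As the mean of both probe sets the difference was -0.13 and did not pass, so no direction is given for this gene.

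Among the largest falls, many were shared with treated wild type. Fam107a read 9.71, 9.35 and 6.86 in untreated mice and 4.55, 3.55 and 3.77 in null mice, the largest fall (-4.68, SE 0.65), with treated wild type at 3.20, 3.37 and 3.77. Control mouse 3 was low in its group, and both treated groups lay under the filter level. Without control mouse 1, 2 or 3 another probe set was the brightest, and the difference was -1.64, -1.87 or -2.72. Aox3, an aldehyde oxidase, read 13.16, 13.21 and 13.24 in untreated, 10.13, 9.83 and 10.62 in null and 8.19, 9.35 and 9.68 in treated wild-type mice, -3.01 (SE 0.39) and -4.13 from untreated. Enho, which encodes the secreted peptide adropin, was -3.92 (SE 0.21) on 1 probe set and -3.64 on another, while its 2 dim probe sets gave -0.50 and 0.03. Treated wild type was -2.90 from untreated on the first. Hectd2os (-3.92), the adhesion receptor gene Adgrv1 (-3.19), the retinol dehydrogenase Rdh16f2 (-2.85), the galactosyltransferase B3galt1 (-2.83) and the potassium channel Kcnt2 (-2.11) were also lower in treated wild type, by between -2.21 and -5.19. Without control mouse 2 or 3 another B3galt1 probe set was the brightest, and the difference was -1.87 or -1.89.

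Other falls left null liver below both wild-type groups. Mfsd2a, a transporter of lysophosphatidylcholine that carries long-chain fatty acids, read 10.71, 10.01 and 9.32 in untreated mice, 5.20, 6.13 and 4.99 in null mice and 8.08, 8.61 and 8.27 in treated wild type. It was 23.8-fold lower than in untreated mice (-4.57, SE 0.35, adjusted p = 1.43e-05) and -2.88 from treated wild type. Ugt3a1, a glycosyltransferase, was -3.32 (SE 0.18) from untreated and -2.45 from treated wild type, and its neighbour Ugt3a2 is similar in sequence. The gene 2010315B03Rik read 8.93, 9.04 and 9.02 in untreated mice, 6.24, 6.20 and 6.13 in null mice and 9.23, 9.11 and 9.10 in treated wild type, so that the wild-type groups were alike (0.15, not passing) and null mice -2.81 (SE 0.09) lower. Caln1, a calcium-binding protein gene, had the same order on its brightest probe set, at -2.43 (SE 0.17) and -0.03. Null values were under the filter level there. On its other probe set null mice were -0.97 (SE 0.18) from untreated, at 5.12, 4.87 and 5.17 against 6.28, 5.73 and 6.05. Treated wild type, at 5.82, 5.04 and 5.21, overlapped the null mice on it, so the order was not the same. Cyp26a1, which breaks down retinoic acid, was -2.11 (SE 0.36), and -1.50 from treated wild type.

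Genes close to Ppara on chromosome 15 were counted, because the region around a disrupted gene keeps the strain in which the disruption was made. Of the 50 tested genes nearest to Ppara 3 were higher and 2 lower (10.0%), and of the nearest 200 there were 5 and 5 (5.00%), against 6.65% of all genes. Over the whole chromosome 46 of 549 tested genes, Ppara included, differed (8.38%), and other chromosomes ranged from 5.28% to 8.58%. The 6 nearest genes that differed, counted in gene order and not in bases, were Celsr1, Pim3, Ttll8, Pnpla3, Bik and Abcd2. Celsr1, an adhesion receptor gene, read 5.38, 5.16 and 5.27 in untreated, 6.75, 6.93 and 6.72 in null and 4.91, 4.48 and 4.70 in treated wild-type mice, and Bik, a pro-apoptotic gene, read 6.98, 7.97 and 7.20, then 5.96, 6.01 and 6.08, then 7.32, 7.92 and 7.50. Null mice thus stood apart from both wild-type groups in these 2 genes, at 1.53 (SE 0.15) and -1.37 (SE 0.24) from untreated. Pim3, a kinase gene, was -1.21 (SE 0.19) and did not differ from treated wild type beyond the threshold (0.12). Ttll8 (0.74) did not pass without control mouse 1 (0.55).

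**Figure D5:**
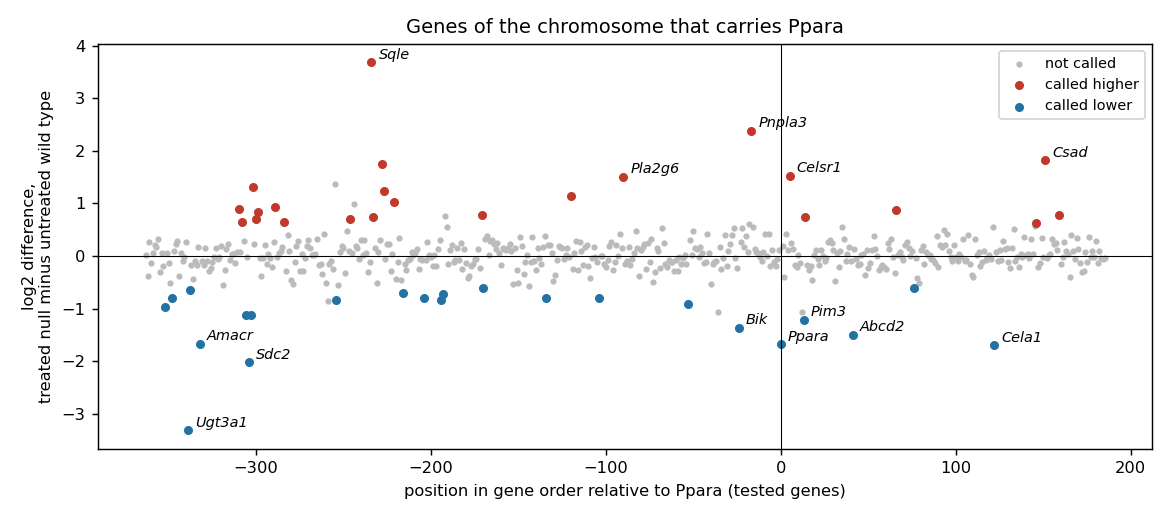
Log2 difference between treated PPARα-null and untreated wild-type liver for the 549 tested genes of the chromosome that carries Ppara, in gene order with Ppara at 0. Higher (red) and lower (blue) genes lie along its whole length, and 5 of the 50 genes nearest to Ppara differed.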

How the data were processed

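Liver RNA (250 ng per mouse) was labelled and read on Affymetrix arrays, 12 in all. The authors deposited log2 expression values per probe set, made with RMA per the submitters' processing notes; its version and settings are not given in the sources used here. RMA gives all arrays 1 distribution of values, so differences are relative to the other genes of an array. Array medians were 5.45 to 5.50. Arrays have no sequencing depth, and the 3 mice per group limit the precision.

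The arrays held 45101 probe sets with 64 controls among them. Of the others, 34945 had 1 gene symbol in the platform table, 932 several and 9160 none, and 34754 of those with 1 matched the RefSeq gene table given for GRCm38.p6. Probe sets had to reach their array's 40th percentile on 3 arrays (28344 kept, 23888 with 1 symbol), and the brightest stood for a gene. All 4 groups were fitted with limma 3.58.1 in R 4.3.3 (lmFit, eBayes). The code was tested on simulated data. The SE is the fit's, with n = 3 mice per group, and p-values measure the spread between these mice.

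The members and the 31 gene lists (820 genes, 709 tested) were written from general knowledge with earlier results of these data known, and support nothing independently. Lists are described by counts and medians without a test of the list. The text names the 15 largest rises and falls without overlap, up to 4 genes per list by adjusted p, the 6 genes nearest to Ppara that differed, and 27 genes always of interest, of which 24 were tested; the others were not analysed here. Genes named beyond this rule were chosen after their values were seen. Alternatives were other filters, probe set rules, scalings, fits and thresholds, and leaving out each array.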

Additional observations from a re-analysis of the deposited data

Results flagged for a closer look

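Probe sets without exactly 1 gene symbol took no part in the gene comparison, yet some differed between treated null and untreated wild-type liver. Of 4456 such probe sets, 96 were higher and 173 lower in null liver, together 6.04% against 6.69% of all 28344 probe sets tested the same way. The examples below were picked after their values were seen. One probe set read 9.01, 8.96 and 9.26 in untreated and 11.86, 12.26 and 12.08 in null mice, a difference of 2.99 (SE 0.11). Another was higher by 3.23 (SE 0.51), from a level under the filter. A further pair was lower (-2.85, SE 0.25, and -2.43, SE 0.14), both with null means under the filter level.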

How the results depend on the processing

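The counts of genes that differed moved by less than 1.5 times under other filters, scalings, fits and when probe sets of a gene were averaged. Leaving out 1 array gave 733 to 949 genes in all, 424 to 563 higher, 309 to 386 lower, 127 to 166 distinct list members (170 in the full data), and 4 to 6 and 10 to 13 among the 50 and 200 genes nearest to Ppara. Testing each probe set gave 1896 (949 higher, 947 lower). A 2-fold threshold gave 324 genes (210 higher, 114 lower), 99 list members and 6 of the nearest 200. With no fold threshold there were 2975 (1808 higher, 1167 lower), 265 list members, and 12 and 45 near Ppara. The settings for genes near Ppara were chosen after the data were seen. Of 101 named genes that differed, 82 kept their call under all 16 alternatives that keep the fold threshold and test genes, 18 lost it under at least 1, and Hsd17b13 reversed with the mean of its probe sets (-0.13). With the replicate number as a replicate block there were 900 genes, 881 of them shared with the 904. Deviations of same-numbered mice correlated at 0.02, -0.03 and 0.11, and those of other pairs at -0.08 to 0.05. Only number 3 was above 0.1, so the numbers were not taken to pair the mice. The share of higher genes was 59.5%, or 58.7% with quantile normalization and 60.5% with median centring. Weak signals limit the rest: folds that involve means under 4.87, or near the top of the scale, are not exact, 3 mice per group leave small differences unseen, and the array reads a gene only through the chosen probe set.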

Other observations

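Genes ranked next by size, 16th to 30th in each direction, were read after their values were seen, and the following are given as values only. Trhde, an enzyme that breaks down thyrotropin-releasing hormone, was 2.65 higher in treated null than in untreated liver (SE 0.09), with group means of 5.50 and 2.85 and 3.02 in treated wild type, the wild-type means being under the filter level. Serpinb1a, a protease inhibitor, was 2.17 higher (SE 0.22), and Fam89a 2.26 higher (SE 0.16), while treated wild type stood at 5.04 and 7.37 beside untreated means of 4.82 and 6.57. Among the lower genes, Decr2, a peroxisomal reductase for unsaturated fatty acids, had a null mean of 8.46 against 10.42 in untreated and 11.33 in treated wild-type liver (-1.96 from untreated, SE 0.29). Galc, a lysosomal galactosidase, had means of 3.93 in null, 5.70 in untreated and 6.69 in treated wild-type liver. Sdc2, a cell surface proteoglycan, was -2.03 (SE 0.07) and the anion transporter Slc22a7 -1.87 (SE 0.29), and both were low in treated wild type as well, with means of 9.70 and 6.69 against untreated means of 11.32 and 9.41.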
